A study of Mus musculus with 6 samples.

Results

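The genes of the proteasome were examined in iNKT cells of stage 0 from wild-type BALB/c mice and from SKG mice. Members were all rows of the count table whose symbol starts with Psm, a letter from a to g and a number, which gave 50 of 48397 genes after 4 processed pseudogenes with the ending -ps were set aside. One of the 50, Psmc3ip, matched by its letters alone. It encodes a partner protein of meiotic recombination, so 49 members were subunits or regulators of the proteasome. The filter on low counts passed 48 members, Psmc3ip among them, and did not pass Psma8 and Psmb11.

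The proteasome is the protease that degrades ubiquitin-tagged proteins in the cytoplasm and nucleus. Its 20S core is a barrel of alpha rings, which gate the entry, and beta rings, which carry the active sites, and a 19S particle made of a base with ATPases and a lid recognises, unfolds and feeds in the substrate. Interferon and haematopoietic identity favour the immunoproteasome, in which Psmb8, Psmb9 and Psmb10 take the places of the catalytic subunits Psmb5, Psmb6 and Psmb7. Peptides made by either form are loaded on MHC class I molecules, and epithelial cells of the thymic cortex use a further form with Psmb11.

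Stage 0 iNKT cells are the earliest thymic precursors of invariant natural killer T cells, just after their selection by CD1d. They were sorted from the thymus of mice of 8 to 10 weeks by binding of the PBS57-CD1d tetramer, as cells that were CD24+ and CD69+ but CD44-, CD8- and CD4 lo/-. One group was wild-type BALB/c. The other, SKG, carries a hypomorphic mutation of Zap70, a kinase that transmits the T cell receptor signal, on the BALB/c background in every cell of the mouse. Each library came from about 1000 cells pooled from 3 mice, and each genotype had 3 libraries, so a value is an average over mice and the spread between mice was not measured. Fewer cells of a type and less RNA per cell cannot be told apart in such bulk samples.

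The libraries held 37176544 to 43115544 reads in genes, and 10835 to 14791 genes had at least 10 reads. The Zap70 counts could not check the genotype, because the mutation changes a residue and counts per gene do not show the sequence of the reads. Markers of the sorted stage were present in all 6 libraries, with a summed level of 3848 to 4687 CPM (counts scaled to the same library total, by TMM) in BALB/c and 3407 to 3703 CPM in SKG for 7 genes. Summed markers of double-positive thymocytes were at 38.2 to 394 CPM in BALB/c and 54.4 to 151 CPM in SKG, those of B cells at 6.88 to 94.9 and 4.59 to 45.0 CPM, and those of erythroid cells at 0.0270 to 69.7 and 0.0515 to 0.691 CPM. Myeloid markers were at 99.0 to 228 CPM in BALB/c and 75.1 to 266 CPM in SKG, and thymic epithelial markers at 28.7 to 60.8 and 18.1 to 99.5 CPM. The defining genes Cd22, Cd14, Alas2 and Krt5 had no read in any library. In the stage 0 sum, Egr2 (1097 to 1547 CPM in BALB/c, 493 to 956 CPM in SKG) and Cd69 (312 to 391 and 152 to 249 CPM) were lower in each SKG library, while Cd3e, Trac, Cd5, Zbtb16 and the sort marker Cd24a overlapped between the genotypes. The part of the other cells and of these stage 0 genes in the values of the proteasome genes was not tested.

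The upstream sequence of 5 members is given with the motifs they hold. Psmb5, Psmb6, Psmb8 and Psmb9 are catalytic subunits compared here, and Psmc2 had 1 of the lowest p-values. The window of Psmb10, another catalytic subunit, holds none of the motifs named below and is not printed. RefSeq windows on GRCm38.p6, each of 300 bases from 250 before to 50 after the transcript start, were available for 42 members and not found for Psma8, Psmb1, Psmb2, Psmb7, Psmc3, Psmd3, Psmd7 and Psmg2. Capitals mark matches to the motifs named below the sequences, and each sequence runs 5′ to 3′ on the strand of its gene.
Psmb5, chr14:54617946-54618245, minus strand: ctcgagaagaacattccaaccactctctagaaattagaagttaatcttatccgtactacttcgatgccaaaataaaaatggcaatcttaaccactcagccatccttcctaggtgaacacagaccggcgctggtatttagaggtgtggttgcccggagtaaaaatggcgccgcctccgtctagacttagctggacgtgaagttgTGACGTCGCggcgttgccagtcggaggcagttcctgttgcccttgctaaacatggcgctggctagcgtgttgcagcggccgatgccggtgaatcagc
Psmb6, chr11:70525107-70525406, plus strand: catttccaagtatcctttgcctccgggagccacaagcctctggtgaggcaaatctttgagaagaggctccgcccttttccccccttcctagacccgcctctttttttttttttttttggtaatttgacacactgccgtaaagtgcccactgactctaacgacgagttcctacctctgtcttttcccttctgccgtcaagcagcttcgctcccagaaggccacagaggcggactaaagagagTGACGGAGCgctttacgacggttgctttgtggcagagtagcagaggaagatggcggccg
Psmb8, chr17:34197945-34198244, plus strand: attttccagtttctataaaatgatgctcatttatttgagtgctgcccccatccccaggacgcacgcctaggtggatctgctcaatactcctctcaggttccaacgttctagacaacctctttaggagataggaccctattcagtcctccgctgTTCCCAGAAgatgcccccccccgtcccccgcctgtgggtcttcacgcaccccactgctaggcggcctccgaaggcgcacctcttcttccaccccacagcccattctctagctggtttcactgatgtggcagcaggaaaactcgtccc
Psmb9, chr17:34187281-34187580, minus strand: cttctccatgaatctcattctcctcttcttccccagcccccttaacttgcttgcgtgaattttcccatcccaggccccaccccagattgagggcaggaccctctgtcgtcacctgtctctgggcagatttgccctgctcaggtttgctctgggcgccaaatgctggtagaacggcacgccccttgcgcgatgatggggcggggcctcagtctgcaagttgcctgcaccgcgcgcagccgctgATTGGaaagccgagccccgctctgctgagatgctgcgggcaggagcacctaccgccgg
Psmc2, chr5:21785025-21785324, plus strand: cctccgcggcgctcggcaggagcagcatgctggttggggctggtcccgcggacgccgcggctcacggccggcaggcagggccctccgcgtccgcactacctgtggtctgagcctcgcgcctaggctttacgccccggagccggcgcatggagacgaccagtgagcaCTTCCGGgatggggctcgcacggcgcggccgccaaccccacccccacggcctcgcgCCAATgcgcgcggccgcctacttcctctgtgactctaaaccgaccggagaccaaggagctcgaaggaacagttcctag

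The antioxidant response element core, TGACNNNGC, to which the proteasome regulator Nfe2l1 can bind, was searched on both strands, as were all motifs here. It was present in the windows of 6 members (14.3%), Psmb5 and Psmb6 among them, and in 12.4% of all 32851 mouse windows. The gamma-activated sequence TTCNNNGAA, found at interferon-gamma-induced genes, occurred in 3 members (7.14%), Psmb8 among them, against 8.3% of all windows. The core of the interferon-stimulated response element occurred in 5 members (11.9%) against 3.44%, and these were Psmb3, Psmd4, Psmd9, Psme1 and Psmg4. The CCAAT box was held by 15 members (35.7%) and by 37.4% of all windows, and CCGGAAG, an Ets site, by 15 members (35.7%) and 8.86%. The Psmc2 window was printed on the condition that it holds a CCAAT box, so that match was fixed in advance. It also holds the Ets site. Psma5, which had a lower unadjusted edgeR p than Psmc2, has a window with none of these motifs. Members were counted by gene, 3 of them with 2 windows, and the background by window, so the shares are not of the same unit. Psmc3ip is among the 42 members with a window and holds the CCAAT box and the Ets site. All these matches describe letters in a window and not bound sites.

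Most proteasome genes were measured at a slightly lower level in SKG, and no member passed the test. Of the 48 tested members, 42 had a fitted log2 fold change below 0 (87.5%) and 6 above it, while 6282 of all 12312 tested genes (51%) were below 0. The median over members was -0.20 on the log2 scale, against -0.02 over all tested genes. Among genes with a mean of at least 50 CPM the same figures were 37 of 43 members, with a median of -0.20, and 47.5% of 4744 genes, with a median of 0.02. Members are parts of 1 complex and were measured in the same 6 libraries, so their directions are not independent of each other.

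By the thresholds of the study, an FDR under 0.1 with a fold change of at least 1.5, 0 members were called by edgeR's quasi-likelihood test with Benjamini-Hochberg adjustment, and 0% of all genes were called. The lowest adjusted p of a member in that test was 0.847. DESeq2 also called 0 members, while it called 2.58% of all genes without shrinkage of fold changes and 1.67% with it. At an unadjusted edgeR p under 0.05, 2 members were lower in SKG, Psma5 and Psmc2, beside 2.38% of all genes. In 5 members, Psma5, Psmb7, Psmd7, Psmd13 and Psme3, each SKG library lay below each BALB/c library (10.4% of the tested members), and 7.12% of all genes showed the same. In the other direction 0 members had such separated libraries, and 6.77% of all genes had. The spread between replicates was smaller in the proteasome genes than in most genes, since the median biological coefficient of variation was 22.9% in members and 60.9% in all genes, or 29.5% in genes of at least 50 CPM.

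**Figure D1:**
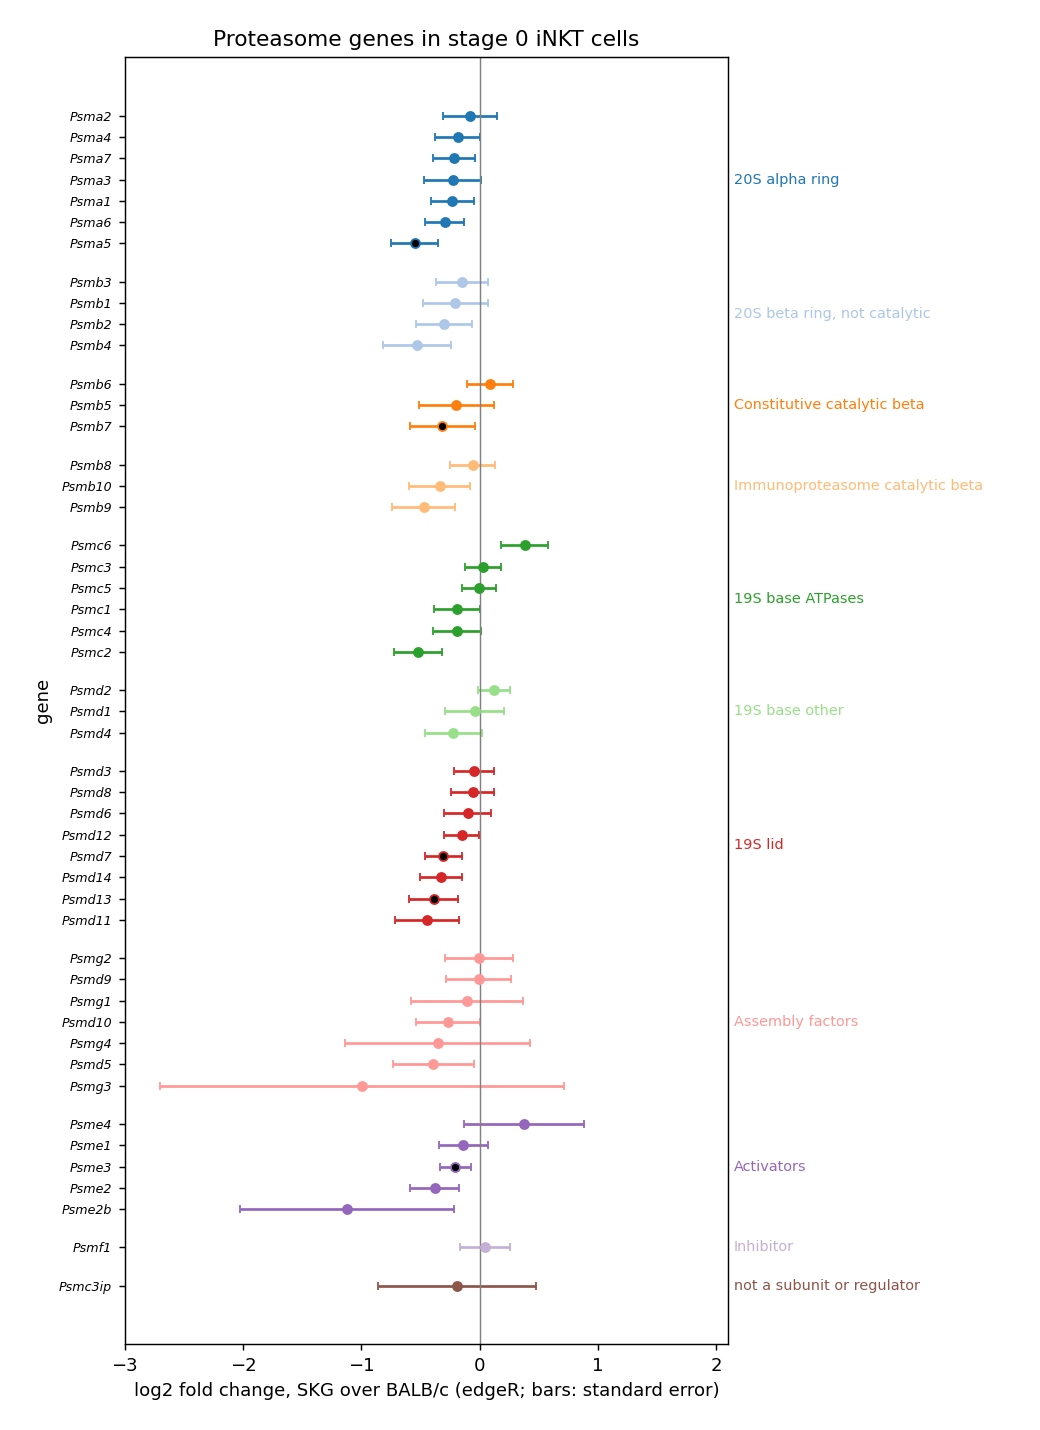
Fitted log2 fold change, SKG over BALB/c, of each tested member (x axis) by structural group (rows), with bars of 1 standard error and 3 libraries per genotype. Black points mark the 5 genes in which all SKG libraries are below all BALB/c libraries, and 42 of the 48 points lie left of 0.

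**Figure D2:**
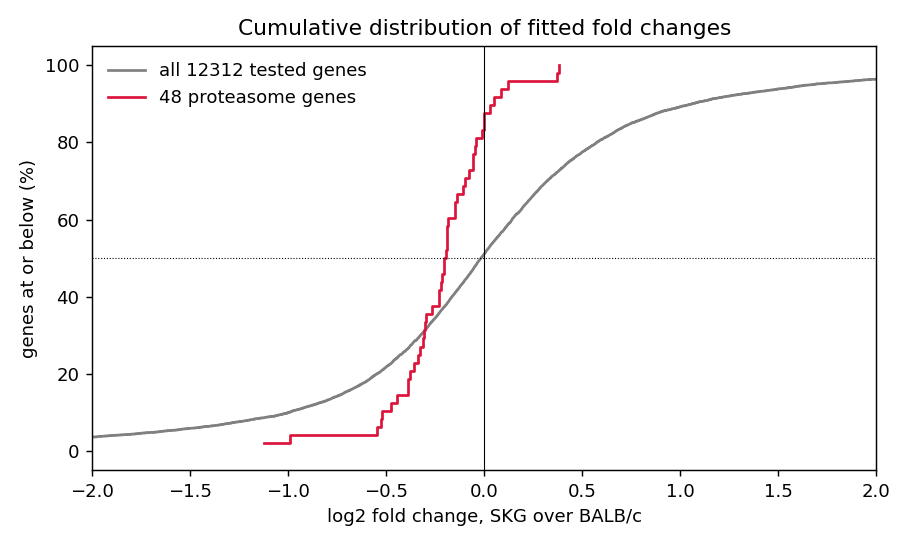
Cumulative percent of genes (y axis) against log2 fold change, SKG over BALB/c (x axis), for the 48 tested members and all 12312 tested genes, shown between -2 and 2. The line of the members crosses 50% at -0.20 and that of all genes at -0.02.

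The lower level was not shared evenly by the SKG libraries. The members took 1.13%, 1.00% and 1.07% of the reads in BALB/c replicates 1, 2 and 3 and 0.909%, 0.891% and 1.00% in SKG replicates 1, 2 and 3. BALB/c replicate 2 and SKG replicate 3 thus differed only beyond the third digit, at 1.002% and 1.001%. After scaling of the libraries by TMM, the summed level of the members was 11407, 10137 and 10239 CPM in BALB/c and 9087, 9065 and 10286 CPM in SKG, and the genotypes overlapped. The mean sums were 10595 ± 706 CPM in BALB/c and 9479 ± 699 CPM in SKG (SD, n = 3).

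SKG replicate 3 differed in this from the other SKG libraries. It had the highest level of the 6 libraries in 10 members and the lowest in 7, whereas SKG replicates 1 and 2 were lowest in 14 and 16 members. BALB/c replicate 1 was highest in 23 members. Without SKG replicate 3, 22 members had libraries that did not overlap, 20 of them lower in SKG, while 12.2% of all genes were lower in that way. Without BALB/c replicate 2 the number was 19, with 18 lower, and the share of all genes was 12.5%. With any other single library left out the number was 6 to 9, with 5 to 7 lower, and the share of all genes was 10.8% to 12.4%. The 2 libraries with the most members at their highest level, BALB/c replicate 1 and SKG replicate 3, also had the highest summed markers of myeloid cells (228 and 266 CPM), double-positive thymocytes (394 and 151 CPM) and B cells (94.9 and 45.0 CPM). The myeloid sum came from Cst3, Lyz2 and Cd68, while Csf1r, Itgam, Itgax, Adgre1 and Cd14 were at 0 in both libraries. The part of those cells in the result was not tested.

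**Figure D3:**
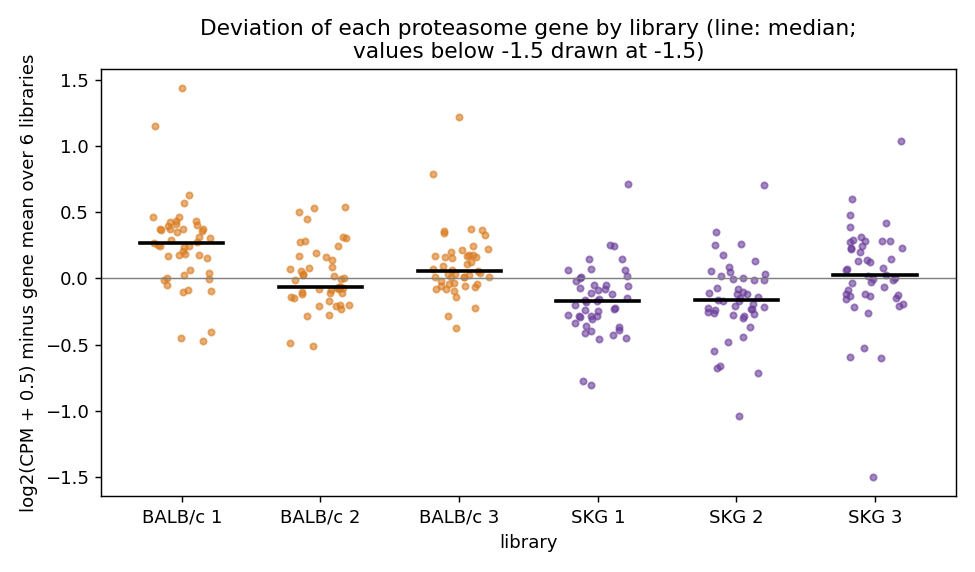
Deviation of each tested member from its mean over the 6 libraries, as log2(CPM + 0.5) on the y axis, by library on the x axis; lines are medians over members and the value of Psmg3 in SKG replicate 3, below the scale, is drawn at its lower end. Medians were 0.27, -0.06 and 0.06 in BALB/c replicates 1 to 3 and -0.17, -0.16 and 0.03 in SKG replicates 1 to 3.

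In the alpha ring, which closes the 20S barrel, 7 of 7 tested genes had a fitted log2 fold change below 0, with a median of -0.23 and 1 gene under an unadjusted p of 0.05. Psma5, on chr3:108256926-108279974 of GRCm38, was measured at 138, 121 and 114 CPM in the BALB/c libraries and at 87.5, 73.3 and 94.3 CPM in the SKG libraries. All 3 SKG libraries were below all 3 BALB/c libraries. The log2 fold change was -0.55 (SE 0.20, 95% interval -1.02 to -0.07), and in edgeR's test the unadjusted p was 0.0294 and the Benjamini-Hochberg adjusted p 0.847. Psma2, another ring member, lay at the other end of the group with -0.08 (SE 0.23), where SKG replicate 3 had the highest level of the 6 libraries, 394 CPM, and SKG replicates 1 and 2 the lowest, 241 and 240.3 CPM.

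The beta subunits without an active site, Psmb1 to Psmb4, had 4 of 4 log2 fold changes below 0 and a median of -0.26. Psmb4 had the lowest of them, -0.53 (SE 0.29), and its libraries were at 255, 214 and 167 CPM in BALB/c and 129, 109 and 204 CPM in SKG. SKG replicates 1 and 2 lay below each BALB/c library and SKG replicate 3 did not. Psmb3 had the highest, -0.15 (SE 0.22), and neither gene passed an unadjusted p of 0.05 in edgeR.

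The catalytic subunits of the constitutive core showed no common direction. Psmb5, the chymotrypsin-like subunit, was at 62.9, 44.3 and 59.6 CPM in BALB/c and 39.0, 46.3 and 60.3 CPM in SKG. The genotypes overlapped and the log2 fold change was -0.20 (SE 0.32, 95% interval -0.95 to 0.56). Psmb6, the caspase-like subunit, was at 312, 227 and 273 CPM in BALB/c and 240.1, 287 and 336 CPM in SKG, with a log2 fold change of 0.09 (SE 0.19, 95% interval -0.38 to 0.55). Its highest library was SKG replicate 3 and its lowest BALB/c replicate 2, with the genotypes interleaved. Psmb7, the trypsin-like subunit, was at 68.0, 55.3 and 53.0 CPM in BALB/c and 48.2, 43.4 and 50.2 CPM in SKG. Here the libraries did not overlap, but the lowest BALB/c and highest SKG library lay close together and the log2 fold change was -0.31 (SE 0.27, 95% interval -0.96 to 0.34).

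The subunits of the immunoproteasome were measured lower in SKG in 3 of 3 cases, with a median of -0.34, and none passed an unadjusted p of 0.05 in edgeR. The direction of Psmb8 was not stable, since its log2 fold change was 0.02 without BALB/c replicate 1, 0.05 without SKG replicate 1 and 0.08 with a block by library number. Psmb8, which replaces Psmb5, was at 509, 400.2 and 481 CPM in BALB/c and 369, 418 and 547 CPM in SKG. The lowest and the highest library were both SKG, and the log2 fold change was -0.06 (SE 0.19, 95% interval -0.52 to 0.40). Psmb9, which replaces Psmb6, was at 126, 98.7 and 125 CPM in BALB/c and 90.4, 59.2 and 103 CPM in SKG. SKG replicates 1 and 2 were below every BALB/c library and SKG replicate 3 was above BALB/c replicate 2, and the log2 fold change was -0.47 (SE 0.27, 95% interval -1.11 to 0.16). Psmb10, which replaces Psmb7, was at 104, 90.9 and 118 CPM in BALB/c and 90.3, 97.1 and 60.2 CPM in SKG. Its groups overlapped, SKG replicate 3 was far below the other libraries, and the log2 fold change was -0.34 (SE 0.26, 95% interval -0.95 to 0.28).

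**Figure D4:**
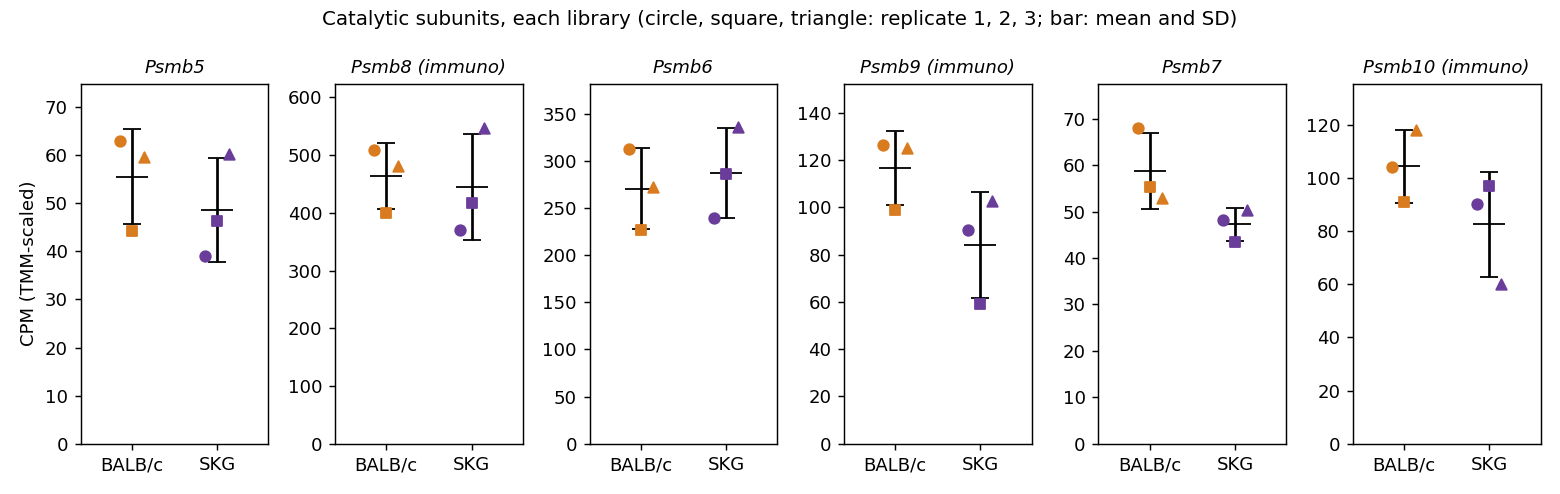
Level of the 3 constitutive and 3 immunoproteasome catalytic subunits in each library, in TMM-scaled CPM on a y axis from 0 (each panel has its own scale), by genotype on the x axis, with mean and SD of 3 libraries. The libraries of the genotypes overlap in each panel except that of Psmb7.

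Ratios within a library do not depend on how the libraries were scaled. The ratio of Psmb8 to Psmb5, per kb of exon, was 1.16 ± 0.09 in BALB/c and 1.29 ± 0.04 in SKG on the log2 scale (SD, n = 3), and the libraries overlapped. For Psmb9 over Psmb6 the 3 libraries were at -2.27, -2.17 and -2.09 in BALB/c and -2.38, -3.24 and -2.68 in SKG. Every SKG library was below every BALB/c library, and the difference of the means was -0.59, or -0.35 without SKG replicate 2 and -0.63 without SKG replicate 3. Psmb10 over Psmb7 was 1.83 ± 0.29 in BALB/c and 1.78 ± 0.47 in SKG, with overlap. That difference was -0.05, and its sign turned when either BALB/c replicate 3 (0.11) or SKG replicate 3 (0.21) was left out. No p is attached to these ratios, since an exact permutation test (two-sided) over 3 libraries of each genotype cannot go below 0.1. Differences between genotypes in a ratio are the same for any gene length, but its height is not: per kb of principal transcript in place of all exons, the BALB/c means became 2.21, -1.97 and 0.65.

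**Figure D5:**
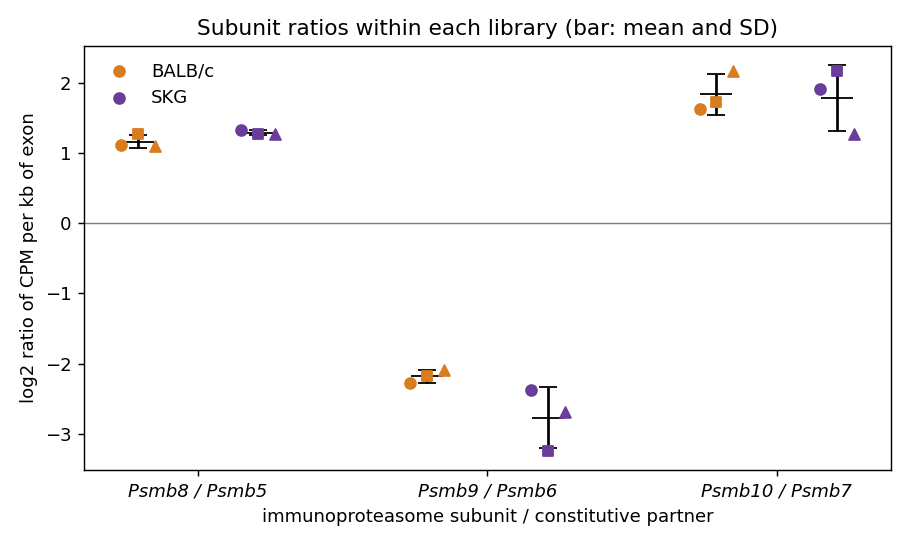
Log2 ratio of each immunoproteasome subunit to its constitutive partner, in CPM per kb of exon (y axis), in each library by pair and genotype (x axis), with mean and SD of 3 libraries. The SKG libraries lie below the BALB/c libraries for Psmb9 over Psmb6 and overlap with them for the other pairs.

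The immunoproteasome share, the level of Psmb8, Psmb9 and Psmb10 per kb of exon as a percent of that of all 6 catalytic subunits, was 49.0%, 51.5% and 51.9% in BALB/c and 50.2%, 47.5% and 46.3% in SKG. SKG replicate 1 lay within the BALB/c range, so the genotypes overlapped. The means were 50.8% ± 1.61 and 48.0% ± 1.97 (SD, n = 3), a difference of -2.81 percentage points. With Psmb8 and Psmb9 over Psmb5 and Psmb6 only, the share was 43.9%, 46.0% and 45.4% in BALB/c and 43.8%, 40.6% and 43.5% in SKG. Each SKG library was then lower, though SKG replicate 1 (43.83%) lay just below BALB/c replicate 1 (43.89%). With the length of the principal transcript the means were 50.0% ± 1.54 and 46.8% ± 1.51, again with overlap. Counting did not use strand, and 14.7% of the Psmb8 exon bases, 12.1% of those of Psmb5, 11.8% of those of Psmb7 and 5.79% of those of Psmb9, which lies head to head with Tap1, overlap exons of another counted gene.

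The 6 ATPases of the 19S base, which form the unfolding ring, were split, with 4 log2 fold changes below 0, 2 above and a median of -0.10. Psmc2, on chr5:21785283-21803787 of GRCm38, was at 228, 313 and 292 CPM in BALB/c and 178, 169 and 234 CPM in SKG. SKG replicate 3 lay just above BALB/c replicate 1, and the other SKG libraries lay below all BALB/c libraries. Its log2 fold change was -0.52 (SE 0.20, 95% interval -1.003 to -0.038), with an unadjusted p of 0.0383 and a Benjamini-Hochberg adjusted p of 0.871 in edgeR. Psmc6, of the same ring, was at 92.5, 110.1 and 132 CPM in BALB/c and 151, 132 and 153 CPM in SKG, a log2 fold change of 0.38 (SE 0.20, 95% interval -0.10 to 0.86). The highest BALB/c and the lowest SKG library of Psmc6 were all but equal. The subunits Psmc2 and Psmc6 are found in equal number in the ring, and their fitted values lay on opposite sides of 0.

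Of the other base subunits, 2 of 3 had a log2 fold change below 0, with a median of -0.04. Psmd2, the docking platform for shuttle factors, had a log2 fold change of 0.12 (SE 0.13), and Psmd4, a ubiquitin receptor, -0.22 (SE 0.24), which was -0.42 without SKG replicate 2 and -0.01 without SKG replicate 3. In the lid, 8 of 8 genes were below 0, with a median of -0.23, and the libraries of Psmd7 and Psmd13 did not overlap. Psmd7, the partner of the deubiquitinase Psmd14, was at 263, 269 and 208.5 CPM in BALB/c and 208.3, 187 and 203 CPM in SKG. Its BALB/c replicate 3 and SKG replicate 1 were all but equal, and the log2 fold change was -0.31 (SE 0.16, 95% interval -0.69 to 0.08). Psmd13, a structural lid subunit, was at 217, 185 and 170.2 CPM in BALB/c and 157, 165 and 115 CPM in SKG. All SKG libraries were lower, with a log2 fold change of -0.39 (SE 0.20, 95% interval -0.88 to 0.10). Psmd11, which ties the lid to the core, had the lowest value of the lid, -0.44 (SE 0.27), and Psmd3, a scaffold subunit, the highest, -0.05 (SE 0.17). Summed over the 17 members of the 19S particle, the level was 5219, 5024 and 4828 CPM in BALB/c and 4717, 4558 and 4598 CPM in SKG. All SKG libraries were lower in this sum, which leaves out the subunits Adrm1 and Shfm1, as the naming rule does not match them. The sums of the alpha and beta rings overlapped between the genotypes.

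The dedicated assembly factors, which build the rings and the base and leave the finished particle, had 7 of 7 log2 fold changes below 0 and a median of -0.27, with 0 genes under an unadjusted p of 0.05 in edgeR and overlap in each. Psmg3, a chaperone of alpha ring assembly, had the lowest value, -0.99, with the largest error (SE 1.71). Its reads were 1351, 640 and 1266 in BALB/c and 792, 760 and 0 in SKG. The value rests on the 1 library without a read, and without SKG replicate 3 it was -0.39. It also depends on the fit, at -3.78 in limma-voom, -0.41 in DESeq2 with shrinkage, and -1.88 and -4.96 with a block by title number and by library number. Psmg2, which pairs with Psmg1 in the first step of ring assembly, was at the other end with -0.00 (SE 0.29).

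The activators cap the core in place of the 19S particle. Psme1 and Psme2, which form the interferon-inducible cap together, had log2 fold changes of -0.14 (SE 0.21) and -0.38 (SE 0.21). Psme2 was at 175, 114 and 148 CPM in BALB/c and 107, 113 and 116 CPM in SKG, so that SKG replicate 3 lay just above BALB/c replicate 2. Psme2b, a near-identical copy of Psme2 to which reads of Psme2 can be assigned, had at most 3.88 CPM and a log2 fold change of -1.12 (SE 0.91), which without BALB/c replicate 1 was -0.48. Psme3, which forms a nuclear cap, was at 594, 688 and 554 CPM in BALB/c and 548, 527 and 518 CPM in SKG. All SKG libraries were lower, by a small step, with a log2 fold change of -0.21 (SE 0.13, 95% interval -0.52 to 0.11). Psme4, a large single-chain activator, was at 66.0, 35.5 and 43.5 CPM in BALB/c and 51.0, 31.7 and 105 CPM in SKG. Its log2 fold change of 0.37 (SE 0.51) came from SKG replicate 3 and was -0.21 without it. Psmf1, an inhibitor of the core in vitro, had 0.05 (SE 0.21).

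The tissue-specific subunits were at or near 0. Psmb11 had 0 reads in each of the 6 libraries, against totals of 37176544 reads or more. Psma8, the alpha subunit of the testis, had 11 reads in BALB/c replicate 3, 2 in SKG replicate 3 and 0 elsewhere. Psmc3ip, the match outside the proteasome, had a log2 fold change of -0.19 (SE 0.67), which was -0.91 without SKG replicate 3 but 0.04 without SKG replicate 1 and 0.10 without SKG replicate 2.

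Levels of the members spanned a wide range, also among subunits of the same ring. In CPM per kb of exon over the 6 libraries, Psma6 had the highest mean, 262, and its lowest library, 221, lay below the highest library of the next genes, Psme3 with 194 and Psmb2 with 182, so their order is not beyond the spread. Psma3 had a mean of 18.6 CPM per kb in the same alpha ring. Among catalytic subunits the order was Psmb6 (149), Psmb8 (134), Psmb5 (57.9), Psmb10 (54.8), Psmb9 (27.4) and Psmb7 (15.5 CPM per kb), where Psmb6 and Psmb8 overlapped over the libraries, as did Psmb5 with Psmb10 and Psmb9 with Psmb7. The order depends on the length used. Per kb of principal transcript, Psma7 was first with 577, Psmb6 was at 349.8 and Psmb8 at 279, Psmb9 (74.2) and Psmb10 (71.3) stood above Psmb5 (57.9), and Psma3 was still low at 25.5 CPM per kb.

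Genes that serve the proteasome without being its subunits did not share one direction. Of 32 listed symbols of cofactors, ubiquitin genes, shuttles and regulators, 28 were in the table and tested. Of these 12 were below 0 and 16 above, with a median of 0.07. In edgeR 0 of the 28 were called and 1 passed an unadjusted p of 0.05, beside 671 of all 12312 genes. That 1 gene, Pomp, the maturation factor of the 20S core, was at 333, 291 and 269 CPM in BALB/c and 216, 206 and 234 CPM in SKG. All SKG libraries were lower, with a log2 fold change of -0.45 (SE 0.15), an unadjusted edgeR p of 0.0212 and a Benjamini-Hochberg adjusted p of 0.834. In 3 genes (10.7%), Pomp among them, each SKG library was lower than each BALB/c library, as in 7.12% of all genes. In 2 genes each was higher, as in 6.77% of all genes. The other lower ones were Shfm1, a small lid subunit outside the naming rule, at -0.57 (SE 0.27), and Rps27a, which encodes ubiquitin fused to a ribosomal protein, at -0.62 (SE 0.42). Separate and higher in SKG were Ngly1, the glycanase that acts on Nfe2l1, at 0.55 (SE 0.24), and Vcp, an unfoldase upstream of the proteasome, at 0.24 (SE 0.13). Nfe2l1 itself, the factor that raises proteasome genes when the proteasome is inhibited, overlapped between the genotypes, at 0.31 (SE 0.36).

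The class I pathway and the interferon-gamma response, which use or induce the immunoproteasome, were mixed. Of 25 listed genes 23 were tested. Of these 13 were below 0 and 10 above, with a median of -0.10, 6 passed an unadjusted p of 0.05 in edgeR (4 lower, 2 higher), as did 671 of all 12312 genes (293 lower), and 0 were called. In 6 genes (26.1%) each SKG library was lower than each BALB/c library, as in 7.12% of all genes, and in 2 each was higher, as in 6.77% of all genes. The lower ones included Pdia3, which edits disulphides in the peptide-loading complex, at 459, 730.4 and 584 CPM in BALB/c and 349.7, 383 and 324 CPM in SKG, a log2 fold change of -0.75 (SE 0.20). Tapbp, the tapasin of that complex, was at 349, 282 and 235 CPM in BALB/c and 187, 183 and 195 CPM in SKG, a log2 fold change of -0.62 (SE 0.18). Both were separate between the genotypes, with unadjusted edgeR p-values of 0.00742 and 0.0126 and Benjamini-Hochberg adjusted p-values of 0.686 and 0.804. Others were Calr (-0.41, SE 0.16), a chaperone, and H2-D1 (-0.42, SE 0.14) and B2m (-0.43, SE 0.18), the chains of a class I molecule.

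The 2 separate and higher genes were at the top of interferon signalling. Jak1, a kinase that binds cytokine receptors, was at 677, 609 and 652 CPM in BALB/c and 1109, 814 and 997 CPM in SKG. Ifngr1, a chain of the interferon-gamma receptor, was at 75.6, 119 and 73.1 CPM in BALB/c and 173, 163 and 149 CPM in SKG. Their log2 fold changes were 0.59 (SE 0.15) and 0.86 (SE 0.24), with Benjamini-Hochberg adjusted edgeR p-values of 0.686 and 0.734. Tap1, the peptide transporter that neighbours Psmb9, was at 0.29 (SE 0.39) with overlapping libraries, while Psmb9 was at -0.47. Zap70, the mutated gene, was at 498, 472 and 374 CPM in BALB/c and 322, 338 and 408 CPM in SKG, with overlap and a log2 fold change of -0.33 (SE 0.17).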

How the data were processed

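RNA-seq of sorted stage 0 iNKT cells was analysed from the raw count table. The authors deposited whole-number counts per gene, made with HISAT2 2.1.0 on GRCm38 and featureCounts of Subread 1.4.4 with Ensembl release 85 genes, without strand and at a mapping quality of at least 10, from 50-nt single-end reads. A second table holds the authors' own DESeq2 1.14.1 comparison (fold changes and p-values) and was not used. The labels give SMART-Seq v4 as the kit, at 18 cycles of preamplification, while the study's methods name another kit. PCR duplicates were not marked by molecular identifiers, and p-values measure the spread between pools.

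Counts of all genes were fitted in R 4.3.3 with edgeR 4.0.16 (filterByExpr, TMM, quasi-likelihood F test, no covariate, 3 libraries per genotype) with Benjamini-Hochberg adjustment over 12312 genes, and called at an FDR under 0.1 with a fold change of at least 1.5. CPM are counts scaled to a common library total by TMM. Scripts were tested on simulated counts. Alternatives were DESeq2 1.42.0 with and without shrinkage, limma 3.58.1 (voom), other scalings and filters, replicate blocks and each library left out. Per kb levels used merged exon lengths of GENCODE M21 (GRCm38).

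Members and lists were chosen with earlier results of these data known. Named genes were the catalytic, tissue-specific, activator and inhibitor genes, members with an unadjusted p under 0.05 or separate libraries, the highest and lowest of each structural group, at most 10 list genes by p with the same property, and Zap70. Tap1, Nfe2l1, Psma3, Psma6, Psma7, Psmb2, Psmg4 and Psmc3ip were named after their values were seen. Some genes of the lists are counted but not reported here by name.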

Additional observations from a re-analysis of the deposited data

Results flagged for a closer look

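Reads in the processed pseudogenes of catalytic subunits, which the comparisons did not use, were absent from BALB/c for a pair of them. Psmb5-ps had 0 reads in each BALB/c library and 55, 0 and 12 reads in SKG replicates 1, 2 and 3, a highest value of 55 reads. Psmb6-ps had 0 reads in each BALB/c library and 66, 0 and 0 reads in the SKG libraries, a highest value of 66 reads. Both were listed because reads appear in data outside the main measurement and above the BALB/c level. These reads compare with 1573 for Psmb5 and 9673 for Psmb6 in SKG replicate 1. The difference between the genotypes was not tested, and reads shared with the parent genes cannot be told apart here.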

How the results depend on the processing

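No alternative called a member. The lengths of principal transcripts were added as an alternative after the data were seen, and the immunoproteasome share overlapped with either length but not with Psmb8 and Psmb9 over Psmb5 and Psmb6 only (difference -2.46 points). The median log2 fold change of members stayed below 0, from -0.31 to -0.14 with single libraries left out. Members under an unadjusted p of 0.05 numbered 2, but 1 with DESeq2 with or without shrinkage (Psma5) and 1 without a filter (Psmc2), and 0 to 4 with libraries left out: 1 without BALB/c replicate 1, 4 without BALB/c replicate 2, and 0 without SKG replicate 1 or SKG replicate 2. Members with separate libraries numbered 5, and 6 to 22 with libraries left out: 19 (18 lower) without BALB/c replicate 2, 9 (7 lower) without BALB/c replicate 3, 8 (6 lower) without SKG replicate 2 and 22 (20 lower) without SKG replicate 3. Fewer libraries then need to separate, and the shares of all genes that were lower were 12.5%, 11.7%, 10.8% and 12.2%. They numbered 6 (5 lower) without BALB/c replicate 1, where 11.3% of all genes were lower. Without SKG replicate 1 they numbered 7 (7 lower), and 12.4% of all genes were lower. With the size factors of DESeq2 they numbered 4 (3 lower), and 6.59% of all genes were lower.

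With a replicate block by the number in the sample titles or by the library number, 0 members were under an unadjusted p of 0.05 and the member medians were -0.21 and -0.19. Residuals of equally numbered samples correlated at -0.09, -0.01 and -0.14 (titles) and -0.04 and 0.00 (library numbers). So few pairs cannot show whether equally numbered samples were prepared together. The block by library number takes BALB/c replicate 3 and SKG replicate 1 out of the comparison.

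The sign of the log2 fold change turned in 9 of 40 named genes, in 24 of 599 cases, Psmc3ip not counted among them. Psmg2 was at 0.021 in DESeq2 without shrinkage and 0.020 with it, 0.015 in voom, 0.016 with size factors, 0.002 with a stricter filter, and 0.029 and 0.320 with the replicate blocks. With the library block Psmb5 was at 0.001, Psmb8 at 0.083 and Psmf1 at -0.036. With single libraries left out the values ranged from -0.344 to 0.051 for Psma2, -0.368 to -0.068 for Psmb5, -0.034 to 0.208 for Psmb6, -0.222 to 0.052 for Psmb8, -0.139 to 0.103 for Psmd3, -0.329 to 0.008 for Psme1, -0.214 to 0.701 for Psme4, -0.021 to 0.144 for Psmf1 and -0.194 to 0.214 for Psmg2. The cause was not tested. Of the other cases 1 passed the call, Jak1 in DESeq2 without shrinkage (log2 fold change 0.61, adjusted p 0.0974). Psmg4, Psme2b and Psma8 rest on few reads.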
